A study of Mus musculus with 91 samples.

Results

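The hippocampus and the frontal cortex of the same wild-type (WT) mice were compared, using the 24 arrays of the WT mice that received phosphate-buffered saline (PBS), out of 91 arrays in the series. These were 12 hippocampal and 12 frontal cortical arrays from 12 mice, chosen by genotype, treatment and tissue in the labels and paired by animal number. The sample titles hold 12 such mice and 9 APP/PS1 mice with PBS, where the treatment protocol counts 11 and 8. The series itself asked what an antisense oligonucleotide against CD33, a receptor of microglia, changes in APP/PS1 mice, which carry transgenes of familial Alzheimer's disease, and the WT mice are littermate controls of that line. All of these WT mice had a brain cannula in the right lateral ventricle and an osmotic pump that delivered PBS at 6 µl per day for 14 days from 18 weeks of age, and they were killed at 22 weeks. Tissue came from the left hemisphere, with the hippocampus dissected whole and the frontal cortex taken as the piece in front of a single cut at Bregma +1.0 mm. Total RNA of each piece was labelled with biotin and hybridised to an Illumina bead array, in which beads carry the probe for a given transcript. The 9 APP/PS1 mice that received PBS under the same surgery served as mice outside the comparison in which the same difference could be measured again.

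The hippocampus is a simple cortex built from a few kinds of principal neuron. Granule cells of the dentate gyrus send mossy fibres to the pyramidal cells of CA3, which project to CA1, and CA2 lies between them. The frontal neocortex is layered, with upper layers that connect cortical areas and deep layers that project to the thalamus, brainstem and striatum. The striatum, whose spiny neurons answer to dopamine, lies under the frontal cortex, and the choroid plexus, which makes cerebrospinal fluid, lies against the hippocampus in the ventricle. Gene lists for each of these, for glia and vessels, and for transmitter and wiring families were used to order the results.

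The tissues differed on most probes. Values are log2 signals after both tissues were normalized together, and a difference is hippocampus minus cortex, so a positive value means higher in hippocampus and a value of 1 means 2-fold. Of 13205 probes tested in a limma model with the mouse as a block, 7852 (59.5%) passed an adjusted p of 0.05, 4132 (31.3%) higher in hippocampus and 3720 (28.2%) higher in cortex. Of the calls 52.6% were higher in hippocampus, against 63% (5233 against 3071 probes) in the submitters' value table. A probe counts as detected on an array where the deposited detection p-value was under 0.05, and a probe was kept where it was detected on at least 12 of the 24 arrays. A probe that was kept through 1 tissue alone had to differ, so its p-value adds no support. Counts over the kept members of a list therefore describe those members only. The median size of the difference over all probes was 0.185, and 508 probes (3.85%) differed at least 2-fold, 217 (1.64%) towards hippocampus and 291 (2.2%) towards cortex. With the brightest probe standing for each of 9236 genes, 5591 genes (60.5%) passed, 2984 (32.3%) higher in hippocampus and 2607 (28.2%) higher in cortex, and 170 (1.84%) and 222 (2.4%) differed at least 2-fold. For 1000 genes (10.8%) the 12 arrays of one tissue did not overlap the 12 of the other. These shares over all genes are the background for the counts of each list below, and no list was tested against them. Of the 508 probes with a 2-fold difference, 494 had the same direction in 12 of 12 mice. The mean differences of these 508 probes had the same sign in 100% of cases within each of the 4 collection days. Each day held 2 to 4 mice. The 508 probes were chosen on these same mice, so their agreement in sign was largely set by the choice.

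The hippocampal and cortical arrays lay on different chips, 6 of each and 0 shared, so the tissue and the set of chips cannot be told apart. The same pairs of mice shared a chip in both tissues. Within each of the 6 pairs of chips between 99.02% and 100% of the 2-fold probes kept their sign. These probes were chosen on the same mice, and each pair sets a cortical chip against a hippocampal one. The signs are therefore no check of the chip sets. Each cortical array detected 12992 to 13475 probes and each hippocampal array 12951 to 13814. The first principal component held 56.8% of the variance and separated the tissues, and the second held 8.98%. In pieces of whole tissue, a smaller number of cells of a type and less RNA per cell cannot be told apart.

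Markers of the dentate gyrus and of CA1 were among the largest differences. C1ql2, a secreted C1q-like protein of mossy fibre synapses, ranged from 5.93 to 7.78 (median 6.47) in cortex and from 12.27 to 12.80 (median 12.48) in hippocampus. The difference was 5.91 ± 0.14 (adjusted p = 8.69e-13), which is 60.2-fold, and the lowest hippocampal array lay far above the highest cortical one. Prox1, the homeobox factor that sets granule cell identity, ranged from 6.01 to 6.78 (median 6.38) in cortex and from 8.63 to 9.47 (median 9.06) in hippocampus, a difference of 2.72 ± 0.09 (adjusted p = 5.98e-16). Il16, a cytokine precursor with a neuronal form, was not detected on any cortical array and was detected on 12 of 12 hippocampal arrays, where it ranged from 7.18 to 8.15 (median 7.65). It was at least 4.67-fold higher in hippocampus, a bound that sets the hippocampal mean against the lowest signal detected on the cortical arrays or the probe's own, whichever was higher. The probe of Il16 was kept through the hippocampal arrays alone, so its call in the list count was largely set by the filter. Of the dentate list, 5 (of 14 listed) genes had a probe kept, of which 4 were higher in hippocampus, 1 higher in cortex and 0 not called, with a median difference of 2.51 against 0.022 over all genes. The remaining pair were the cation channel Trpc6 at 0.28 ± 0.10 and the matrix protein Npnt at -0.27 ± 0.10, the latter higher in cortex. Both are near the threshold: Trpc6 did not pass without mouse 4, 14, 32 or 44 (0.23 to 0.25), nor Npnt without mouse 21 or 50 (-0.21 and -0.23).

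For CA1, Spink8, a Kazal-type protease inhibitor, ranged from 6.18 to 6.69 (median 6.52) in cortex and from 10.10 to 10.64 (median 10.40) in hippocampus. Its difference was 3.90 ± 0.07 (adjusted p = 2.62e-21), 14.9-fold. Fibcd1, an endocytic receptor for acetylated sugars, ranged from 9.18 to 9.58 (median 9.43) in cortex and from 12.50 to 12.82 (median 12.60) in hippocampus, a difference of 3.22 ± 0.04 (adjusted p = 2.85e-23). The Nodal antagonist Lefty1 differed by 2.76 ± 0.10 (adjusted p = 3.85e-15) and the POU factor Pou3f1 by 0.79 ± 0.04 (adjusted p = 1.42e-12), each higher in hippocampus in 12 of 12 mice. The plot of 8 genes mouse by mouse shows that the lines of C1ql2, Spink8, Fibcd1 and Prox1 all climb from cortex to hippocampus. Wfs1, wolframin of the endoplasmic reticulum, and the phosphoesterase Mpped1 are also listed for CA1 but were not called, at -0.04 ± 0.06 (adjusted p = 0.561) and 0.08 ± 0.03 (adjusted p = 0.0657). Mpped1 passed without mouse 4 or 12 (0.091 and 0.092) and with each array centred on its median (0.14). Both were bright in cortex as well, with medians of 10.57 and 11.88. In all 6 (of 8 listed) CA1 genes had a probe kept, of which 4 were higher in hippocampus, 0 higher in cortex and 2 not called, with a median difference of 1.77.

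**Figure D1:**
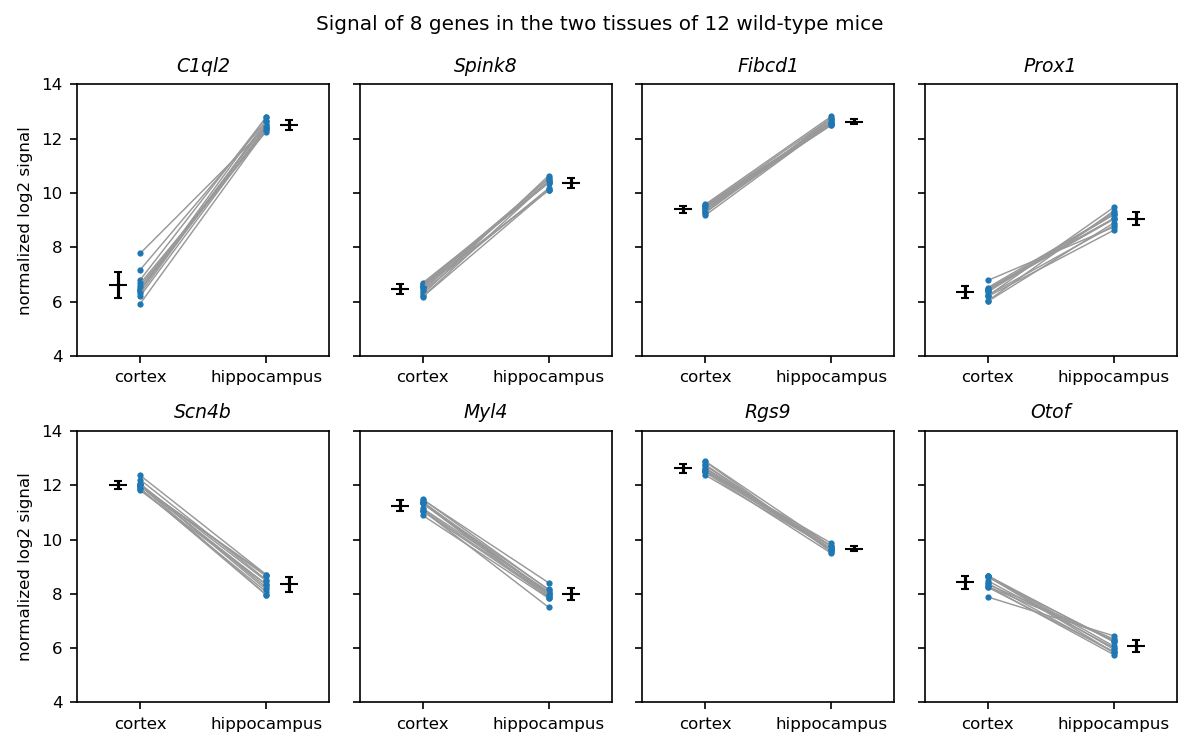
Normalized log2 signal (y axis) of 8 genes in the cortex and hippocampus of 12 wild-type mice (x axis), 1 line per mouse, with the mean and SD of each tissue beside the points. C1ql2, Spink8, Fibcd1 and Prox1 were higher in the hippocampus and Scn4b, Myl4, Rgs9 and Otof higher in the cortex of every mouse, with no overlap between tissues.

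CA2 and CA3 markers had a smaller median difference. Of this list 13 (of 16 listed) genes had a probe kept, of which 9 were higher in hippocampus, 2 higher in cortex and 2 not called, with a median difference of 0.37. Amigo2, an adhesion protein, ranged from 8.33 to 9.04 (median 8.49) in cortex and from 9.79 to 10.20 (median 9.96) in hippocampus, a difference of 1.42 ± 0.05 (adjusted p = 2.24e-15) with no overlap of the tissues. The kainate receptor subunit Grik4 differed by 0.78 ± 0.08, the deiodinase Iyd by 1.04 ± 0.11, the copine Cpne4 by 0.55 ± 0.04 and the signalling regulator Rgs14 by 0.26 ± 0.08, all higher in hippocampus. Coch, cochlin of the extracellular matrix, went the other way. It was detected on 12 of 12 cortical and on no hippocampal array and was at least 2.23-fold higher in cortex. Its probe was kept through cortex alone. Of the list for neurogenesis and cell division only 3 (of 13 listed) genes had a probe kept, too few to describe neurogenesis. Doublecortin (Dcx) was higher in cortex at -0.81 ± 0.07 and the tubulin Tubb2b higher in hippocampus by 0.41 ± 0.03. Draxin, an axon guidance protein, was not called (-0.04 ± 0.11). A further probe of Tubb2b was bright in both tissues, with means of 13.24 in cortex and 13.70 in hippocampus.

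The promoters of 4 genes with large differences are shown as RefSeq lists them on GRCm38.p6, as windows of 300 bases that span the gene's start. Of the 30 genes with the largest differences, 15 in each direction, 18 had a single entry, and the first 2 in each direction with an SD over mice of at most 1 are printed. Capitals mark matches, on either strand, to the E-box CAGCTG or the GC box GGGCGG. The cAMP response element TGACGTCA and the TATA box TATAAA were also searched and matched none of the 4. C1ql2 (chr1:120340332-120340631, plus strand) and Fibcd1 (chr2:31845956-31846255, minus strand) were the hippocampal pair, and Isl1 (chr13:116309639-116309938, minus strand) and Scn4b (chr9:45138374-45138673, plus strand) the cortical pair.
C1ql2: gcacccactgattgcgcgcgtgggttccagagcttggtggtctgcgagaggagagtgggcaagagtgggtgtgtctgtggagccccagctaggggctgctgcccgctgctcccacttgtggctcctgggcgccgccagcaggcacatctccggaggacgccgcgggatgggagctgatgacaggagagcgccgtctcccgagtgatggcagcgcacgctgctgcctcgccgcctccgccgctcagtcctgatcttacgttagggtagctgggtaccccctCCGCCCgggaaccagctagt
Fibcd1: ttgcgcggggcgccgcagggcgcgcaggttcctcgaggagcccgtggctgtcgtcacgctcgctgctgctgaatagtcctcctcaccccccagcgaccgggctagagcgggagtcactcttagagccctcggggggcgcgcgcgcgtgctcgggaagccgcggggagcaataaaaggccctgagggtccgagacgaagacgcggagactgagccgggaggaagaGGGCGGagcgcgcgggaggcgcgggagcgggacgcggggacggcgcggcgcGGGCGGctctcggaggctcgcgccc
Isl1: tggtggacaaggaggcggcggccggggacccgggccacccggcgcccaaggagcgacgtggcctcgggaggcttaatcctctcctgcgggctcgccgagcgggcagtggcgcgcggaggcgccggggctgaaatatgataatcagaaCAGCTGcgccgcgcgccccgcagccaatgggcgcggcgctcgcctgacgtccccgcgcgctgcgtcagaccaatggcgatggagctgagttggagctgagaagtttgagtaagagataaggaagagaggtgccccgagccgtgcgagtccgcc
Scn4b: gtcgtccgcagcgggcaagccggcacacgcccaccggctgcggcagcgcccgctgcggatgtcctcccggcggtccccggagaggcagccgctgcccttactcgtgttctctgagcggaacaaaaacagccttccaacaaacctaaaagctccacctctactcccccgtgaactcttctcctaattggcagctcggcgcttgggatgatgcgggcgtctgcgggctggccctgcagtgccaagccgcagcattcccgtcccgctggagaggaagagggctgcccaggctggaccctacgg
The GC box occurred 1 time in the C1ql2 window and 2 times in that of Fibcd1, and it is held by 35.7% of the 32851 RefSeq promoter windows of this length. The E-box occurred 1 time in the Isl1 window and is held by 16.3% of all windows. Scn4b held none of these motifs. The GC content was 67.3% for C1ql2, 74.3% for Fibcd1, 69% for Isl1 and 66.3% for Scn4b. A match describes the letters of the window and no binding was measured.

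Further genes outside the lists were also much higher in hippocampus. Popdc3, a membrane protein of the Popeye family, passed detection on 1 cortical array and all 12 hippocampal arrays and differed by 2.91 ± 0.09 (adjusted p = 1.15e-16). The olfactomedin-like matrix protein Olfml2b differed by 2.86 ± 0.06, the calcium-binding protein Cabp7 by 3.03 ± 0.09 and Slc29a4, a plasma membrane transporter of monoamines, by 2.68 ± 0.07. Each of these 4 was higher in hippocampus in 12 of 12 mice, with SDs over the mice of 0.22 to 0.34, and the arrays of the tissues did not overlap.

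Choroid plexus transcripts included the largest mean difference of all, and most of them varied widely from mouse to mouse. Ttr, transthyretin, the thyroid hormone carrier that choroid plexus secretes, ranged from 5.55 to 9.28 (median 6.81) in cortex and from 10.96 to 14.69 (median 14.40) in hippocampus, a difference of 6.67 ± 0.50 (adjusted p = 2.72e-07). Of the list 9 (of 17 listed) genes had a probe kept, of which 8 were higher in hippocampus, 0 higher in cortex and 1 not called, with a median difference of 2.66. Kl, the anti-ageing protein klotho, differed by 4.15 ± 0.39 (adjusted p = 1.97e-06), the folate receptor Folr1 by 3.22 ± 0.57 (adjusted p = 0.000446), the BMP and Wnt antagonist Sostdc1 by 3.20 ± 0.41 (adjusted p = 3e-05), the water channel Aqp1, higher in 9 of 12 mice, by 2.66 ± 0.66 (adjusted p = 0.00456) and the chloride channel protein Clic6, also higher in 9 of 12 mice, by 1.76 ± 0.48 (adjusted p = 0.0082). The exception in the list, named here after its value was seen, was Foxj1, a factor of ciliated cells such as ependyma, at -0.06 ± 0.11 (adjusted p = 0.628). Ecrg4, Wfdc2 and Cox8b, which are not in the list, differed by 3.10 ± 0.47, 3.05 ± 0.58 and 2.93 ± 0.43.

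In the hippocampal arrays of mice 6, 12 and 36 most of these genes were low. The exceptions, looked up after the pattern was seen, were Foxj1 and the secreted adipokine Rarres2, which differed by 0.97 ± 0.05 in 12 of 12 mice with a hippocampal SD of 0.195. Ttr was 10.96, 11.04 and 11.40 there, 13.42 in mouse 50, 14.06 in mouse 41 and between 14.31 and 14.69 in the other 7 mice. Aqp1 was 4.87, 5.17 and 4.92 in the same 3 mice, against 6.94 in mouse 50, 7.19 in mouse 41 and 9.27 to 10.30 in the others, and it was not detected in those 3. Kl, Folr1, Clic6, Sostdc1, Wfdc2, Ecrg4 and Cox8b had the same 3 mice lowest and mice 41 and 50 next, as the plot of single mice shows. Fibcd1, by contrast, stayed within 12.50 to 12.82. The summed linear signal of the choroid plexus list was 985 to 1892 on the cortical arrays and 3340 to 39494 on the hippocampal arrays. Without mice 6, 12 and 36, an alternative chosen after seeing the data, the difference of Ttr was 7.47 and that of Aqp1 3.83. In that fit 233 probes were at least 2-fold higher in hippocampus against 217 with all mice, and 291 in cortex against 291. Mice 6 and 36 shared a hippocampal chip, and mouse 12 shared one with mouse 41. Of the probes at least 2-fold higher in hippocampus, 19 had an SD over the mice above 1, against 3 of those higher in cortex.

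Genes of the meninges and of fibroblasts were mixed, and some followed the choroid plexus genes over the mice. Of 14 (of 16 listed) genes with a probe kept, 6 were higher in hippocampus, 2 higher in cortex and 6 not called. The proteoglycan decorin (Dcn) ranged from 8.64 to 9.82 (median 9.45) in cortex and from 10.91 to 11.69 (median 11.37) in hippocampus and differed by 2.04 ± 0.11 (adjusted p = 3.43e-09), and its relative lumican (Lum) by 1.18 ± 0.12 (adjusted p = 4.32e-08). Dcn showed no such dip, at 11.38, 11.69 and 11.46 in mice 6, 12 and 36. The growth factor Igf2 and its binding protein Igfbp2 differed by 0.83 ± 0.15 and 0.77 ± 0.23, and each was lowest in the hippocampus of mice 6, 12, 36, 41 and 50, with Igf2 at 11.85 there and 13.77 in mouse 4. The organic cation transporter Slc47a1 was higher in cortex, with a difference of -1.23 ± 0.16 (adjusted p = 2.61e-05), and the prostaglandin synthase Ptgds likewise, at -0.33 ± 0.07 (adjusted p = 0.000979).

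Neocortical layer markers were split between the tissues. Of the deep layer list 14 (of 20 listed) genes had a probe kept, of which 5 were higher in hippocampus, 8 higher in cortex and 1 not called (median -0.37). Myl4, a myosin light chain, ranged from 10.89 to 11.48 (median 11.34) in cortex and from 7.50 to 8.41 (median 7.98) in hippocampus, a difference of -3.26 ± 0.05 (adjusted p = 2.66e-22). The layer 6 factor Tbr1 ranged from 9.72 to 10.07 (median 9.90) in cortex and from 8.56 to 8.95 (median 8.81) in hippocampus, a difference of -1.14 ± 0.04 (adjusted p = 7.81e-16). Both were higher in cortex in 12 of 12 mice, with no overlap. Foxp2, a forkhead factor of layer 6 that the striatum also expresses, was detected on all cortical and no hippocampal array. It was at least 2.26-fold higher in cortex, with a probe kept through cortex alone. Rprm, reprimo, differed by -0.86 ± 0.05. In the other direction, Fezf2, which specifies subcerebral projection neurons, ranged from 9.00 to 9.81 (median 9.37) in cortex and from 9.99 to 10.34 (median 10.21) in hippocampus, a difference of 0.79 ± 0.05 (adjusted p = 3.79e-12). The nuclear receptor Nr4a2 at 0.91 ± 0.08, the ETS factor Etv1 at 0.86 ± 0.13 and the thyroid hormone-binding crystallin Crym at 0.78 ± 0.04 were also higher in hippocampus, each in 12 of 12 mice.

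For the upper layers, 7 (of 13 listed) genes had a probe kept, of which 2 were higher in hippocampus, 4 higher in cortex and 1 not called (median -0.41). Otof, otoferlin, a calcium sensor of vesicle fusion, ranged from 7.88 to 8.67 (median 8.43) in cortex and from 5.76 to 6.45 (median 6.04) in hippocampus, a difference of -2.35 ± 0.09 (adjusted p = 9.33e-15). Cux2 and Cux1, homeobox factors of upper layer neurons, differed by -1.24 ± 0.10 (adjusted p = 5.01e-08) and -0.60 ± 0.06 (adjusted p = 3.38e-08), and the layer 4 nuclear receptor Rorb by -0.41 ± 0.09 (adjusted p = 0.000617). Scnn1a, a subunit of the epithelial sodium channel that marks layer 4 in primary sensory cortex, was instead higher in hippocampus. It ranged from 5.05 to 5.91 (median 5.29) in cortex and from 6.81 to 7.70 (median 7.33) in hippocampus, was detected on 4 cortical and all 12 hippocampal arrays, and differed by 1.91 ± 0.09 (adjusted p = 4.51e-14).

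The cortical piece also carried high levels of striatal transcripts. Of 17 genes listed, 12 had a probe kept, and each of these was higher in cortex, 10 of them at least 2-fold, with a median difference of -2.42. The dopamine receptor Drd1, of the direct pathway, ranged from 9.72 to 10.15 (median 9.82) in cortex and from 5.57 to 6.99 (median 6.76) in hippocampus, a difference of -3.24 ± 0.13 (adjusted p = 1.27e-11). Drd2, the dopamine receptor of the indirect pathway, ranged from 8.11 to 9.09 (median 8.57) in cortex and from 5.68 to 6.35 (median 6.15) in hippocampus, a difference of -2.54 ± 0.07 (adjusted p = 1.11e-17). Rgs9, which shortens dopamine receptor signalling, ranged from 12.38 to 12.89 (median 12.59) in cortex and from 9.50 to 9.87 (median 9.65) in hippocampus, a difference of -2.96 ± 0.05 (adjusted p = 3.4e-21). Ppp1r1b, the dopamine-regulated phosphoprotein of spiny neurons, differed by -2.22 ± 0.12 and the homeobox factor Meis2 by -1.67 ± 0.05. Isl1, a LIM homeobox factor of striatal neurons, ranged from 8.41 to 9.04 (median 8.77) in cortex and from 4.58 to 5.96 (median 4.85) in hippocampus and was detected on 12 cortical and 2 hippocampal arrays, a difference of -3.72 ± 0.10 (adjusted p = 1.78e-17). Tac1, the precursor of substance P, differed by -3.27 ± 0.06 (adjusted p = 5.82e-19). The summed linear signal of the list was 28764 to 35533 on the cortical and 8196 to 10135 on the hippocampal arrays, so every cortical array was high. Whether a strip of striatum was taken with the frontal piece was not tested, and neocortical neurons also express several of these genes.

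Several of the largest cortical differences belong to genes outside that list. Ido1, an indoleamine dioxygenase that opens the tryptophan ring, ranged from 8.81 to 9.57 (median 9.21) in cortex and from 4.53 to 5.30 (median 4.79) in hippocampus. It was not detected on any hippocampal array and was at least 14.0-fold higher in cortex, with a probe kept through cortex alone. Rasgef1c, a Ras family exchange factor, ranged from 10.37 to 10.74 (median 10.63) in cortex and from 5.98 to 7.14 (median 6.82) in hippocampus, a difference of -3.91 ± 0.07 (adjusted p = 8.63e-20). Scn4b, a beta subunit of voltage-gated sodium channels, ranged from 11.81 to 12.36 (median 11.98) in cortex and from 7.96 to 8.71 (median 8.34) in hippocampus, a difference of -3.67 ± 0.06 (adjusted p = 1.11e-20) or 12.7-fold. The Wnt-related secreted protein Dkkl1 differed by -3.13 ± 0.09 (adjusted p = 1.38e-17) and the troponin Tnnc1 by -2.89 ± 0.06 (adjusted p = 1.09e-19). Slc10a4, a vesicular transporter of cholinergic and monoaminergic neurons, Sh3rf2 and the serpin Serpina9 were detected on no hippocampal array and were at least 5.06-fold, 4.32-fold and 4.2-fold higher in cortex. The summed striatal list was likewise higher on each cortical array than on any hippocampal one. These genes were chosen as higher in cortex, so this shared direction was set by the choice. Any part of striatum in their differences was not tested.

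Olfactory and thalamic markers were low or mixed. Of the olfactory list, 4 (of 7 listed) genes had a probe kept, of which 2 were higher in hippocampus, 2 higher in cortex and 0 not called. Cdhr1, a cadherin-related protein of mitral cells, ranged from 8.07 to 10.03 (median 9.11) in cortex and from 8.01 to 8.90 (median 8.54) in hippocampus, a difference of -0.71 ± 0.21 (adjusted p = 0.0116) with 9 of 12 mice higher in cortex. Doc2g, another mitral cell gene, differed by -1.05 ± 0.33 (adjusted p = 0.0156), also in 9 of 12 mice. In cortex, Cdhr1 was 9.87, 9.94, 10.03 and 9.84 in mice 4, 6, 12 and 46 and 8.07, 8.28 and 8.44 in mice 36, 41 and 50. Scgn, the calcium-binding protein secretagogin, had the same 4 mice highest (6.27, 6.59, 6.57 and 6.51) but was on average higher in hippocampus, at 0.88 ± 0.18 (adjusted p = 0.000463). Mice 4, 6 and 12 were all those of the first collection day, and mouse 46 belonged to the fourth. Nmb, the other kept gene of the list, was higher in hippocampus, though not within that first day (-0.10). The thalamic list held 5 (of 8 listed) genes with a probe kept, of which 3 were higher in hippocampus, 2 higher in cortex and 0 not called. The glutamate transporter Slc17a6 differed by 0.49 ± 0.07, the kinase Prkcd by 0.58 ± 0.07 and the Wnt effector Tcf7l2 by 0.35 ± 0.08. The receptor accessory protein Ramp3 at -1.18 ± 0.07 and the homeobox factor Gbx2 at -1.17 ± 0.18 were higher in cortex.

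No gene of the myelin, microglial or vascular lists differed 2-fold. Of all genes 4.24% did, so the lack of any in lists of this length does not set them apart. Of 15 (of 20 listed) myelin genes with a probe kept, 11 were higher in hippocampus, 0 higher in cortex and 4 not called. The median difference was 0.17. Transferrin (Trf) differed by 0.44 ± 0.03 (adjusted p = 2.3e-10), the myelin enzyme Cnp by 0.40 ± 0.06 (adjusted p = 2.2e-05) and the myelin protein Mobp by 0.37 ± 0.05 (adjusted p = 1.5e-06), while myelin basic protein (Mbp) was not called at 0.05 ± 0.03 (adjusted p = 0.08). Mbp passed the threshold without mouse 4, 12, 21 or 27, at 0.065 to 0.067, and with each array centred on its median, at 0.22. Its 2 dimmer probes were both higher in hippocampus, at 0.66 (adjusted p = 7.03e-12) and 0.15 (adjusted p = 0.0411). Of 5 genes of oligodendrocyte precursors kept, 1 was called in each direction (2 in hippocampus and 0 in cortex with each array centred on its median), and their growth factor receptor Pdgfra was not called, at 0.02 ± 0.05.

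Astrocyte genes were led by Gfap, the intermediate filament of fibrous astrocytes. Gfap ranged from 6.89 to 7.48 (median 7.26) in cortex and from 8.70 to 9.42 (median 8.92) in hippocampus, a difference of 1.74 ± 0.07 (adjusted p = 3.8e-15) with no overlap. Agt, angiotensinogen, differed by 1.48 ± 0.15 (adjusted p = 6.5e-07) and the water channel Aqp4 by 0.70 ± 0.12 (adjusted p = 0.000283). The list was divided, since of 15 (of 18 listed) genes with a probe kept 8 were higher in hippocampus, 4 higher in cortex and 3 not called. Id4, an inhibitor of basic helix-loop-helix factors, and the calcium-binding protein S100b were higher in cortex, at -0.73 ± 0.11 and -0.71 ± 0.12. Of 17 (of 21 listed) microglial genes with a probe kept, 1 was higher in hippocampus, 6 higher in cortex and 10 not called (median -0.058). The purinergic receptor P2ry12 ranged from 6.14 to 7.41 (median 6.97) in cortex and from 4.92 to 6.88 (median 5.97) in hippocampus, a difference of -0.97 ± 0.12 (adjusted p = 6.12e-07), and the protease cathepsin S (Ctss) differed by -0.80 ± 0.09 (adjusted p = 2.55e-07). Tmem119, a membrane protein that marks resident microglia, was not called, at 0.06 ± 0.06. Among 14 (of 19 listed) vascular genes with a probe kept, 1 was higher in hippocampus, 2 higher in cortex and 11 not called, and the tyrosine kinase receptor Flt1 was not called at -0.07 ± 0.07.

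Interneuron genes were mostly higher in cortex. Of 14 (of 20 listed) with a probe kept, 4 were higher in hippocampus, 9 higher in cortex and 1 not called (median -0.21). Slc32a1, the vesicular GABA transporter, ranged from 12.41 to 12.95 (median 12.81) in cortex and from 11.76 to 12.02 (median 11.86) in hippocampus, a difference of -0.91 ± 0.04 (adjusted p = 1.56e-13), and the GABA-synthesizing enzyme Gad1 differed by -0.62 ± 0.03 (adjusted p = 2.03e-14). Striatal projection neurons also use GABA, and whether they add to these differences was not tested. Among subtype markers, Vip ranged from 9.60 to 10.35 (median 10.01) in cortex and from 7.93 to 8.69 (median 8.44) in hippocampus, a difference of -1.62 ± 0.05 (adjusted p = 2.09e-16). Somatostatin (Sst) and parvalbumin (Pvalb) differed by -0.18 ± 0.03 (adjusted p = 3.3e-05) and -0.15 ± 0.04 (adjusted p = 0.00143), the latter not called with each array centred on its median (-0.078), and neuropeptide Y (Npy) by -0.54 ± 0.04 (adjusted p = 5.52e-11). Htr3a, a serotonin-gated channel, ranged from 5.32 to 6.02 (median 5.82) in cortex and from 6.31 to 7.29 (median 7.05) in hippocampus and was higher in hippocampus by 1.23 ± 0.09. Calretinin (Calb2), cortistatin (Cort) and the CRH-binding protein Crhbp were also higher in hippocampus, at 0.74 ± 0.18, 0.48 ± 0.05 and 0.67 ± 0.05. The dimmer probe of Cort was not called (0.15, adjusted p = 0.0593). Cortical Calb2 was highest in mice 4, 6 and 12.

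Most neuropeptide precursors were higher in cortex. Of 15 (of 20 listed) genes with a probe kept, 4 were higher in hippocampus, 11 higher in cortex and 0 not called (median -0.54). Cartpt, the precursor of CART peptide, ranged from 9.95 to 10.46 (median 10.21) in cortex and from 6.83 to 7.69 (median 7.29) in hippocampus, a difference of -2.91 ± 0.06 (adjusted p = 1.57e-19). Prodynorphin (Pdyn), which granule cells and striatal neurons both express, ranged from 11.68 to 12.08 (median 11.85) in cortex and from 9.66 to 10.28 (median 9.83) in hippocampus, a difference of -1.96 ± 0.07 (adjusted p = 1.68e-12). Trh, the precursor of thyrotropin-releasing hormone, varied more, from 6.31 to 8.98 (median 7.55) in cortex and from 5.06 to 5.87 (median 5.45) in hippocampus, with a difference of -2.11 ± 0.24 (adjusted p = 5.78e-06) and its highest cortical value in mouse 4. Gastrin-releasing peptide (Grp) was the largest in the other direction. It ranged from 7.21 to 7.98 (median 7.53) in cortex and from 8.60 to 9.85 (median 9.26) in hippocampus, a difference of 1.62 ± 0.09 (adjusted p = 1.18e-10), and chromogranin B (Chgb) differed by 0.60 ± 0.04 (adjusted p = 6.69e-12).

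Transmitter receptors differed by subunit. Among ionotropic glutamate receptors 8 (of 17 listed) genes had a probe kept, of which 4 were higher in hippocampus, 1 higher in cortex and 3 not called. The AMPA subunit Gria1 ranged from 9.27 to 9.93 (median 9.42) in cortex and from 10.38 to 11.40 (median 10.93) in hippocampus, a difference of 1.40 ± 0.11 (adjusted p = 1.3e-07), and Gria2 differed by 0.39 ± 0.05 (adjusted p = 3.79e-06). Gria4 was higher in cortex at -1.06 ± 0.13 (adjusted p = 3.16e-07), detected on 11 cortical arrays and 1 hippocampal array, and the kainate subunit Grik1 was higher in hippocampus at 0.29 ± 0.08. The metabotropic receptors Grm8 and Grm4 were higher in cortex, at -0.85 ± 0.08 and -0.82 ± 0.17 (Grm4 was 0.063 in the 2 mice of day 2), and Grm7 was not called at 0.04 ± 0.08. Of 6 GABA receptor genes kept, 4 were higher in cortex. Gabrd, the delta subunit of extrasynaptic receptors, ranged from 10.67 to 11.03 (median 10.83) in cortex and from 9.17 to 9.61 (median 9.30) in hippocampus, a difference of -1.50 ± 0.05 (adjusted p = 3.16e-17). Gabrg1 differed by -0.91 ± 0.10, Gabra3 by -0.40 ± 0.10 and Gabrb2 by -0.39 ± 0.11, whereas Gabrb1 was higher in hippocampus by 0.43 ± 0.04.

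Serotonin receptors diverged within the family. Htr5b reached detection on 4 cortical and all 12 hippocampal arrays. It ranged from 4.94 to 5.94 (median 5.36) in cortex and from 7.43 to 8.28 (median 7.94) in hippocampus, a difference of 2.47 ± 0.11 (adjusted p = 1.17e-13). Htr1d ranged from 7.34 to 8.04 (median 7.78) in cortex and from 4.82 to 5.47 (median 5.24) in hippocampus the other way, a difference of -2.58 ± 0.08 (adjusted p = 7.8e-17), and was detected on 1 hippocampal array. Htr1a was higher in hippocampus by 0.47 ± 0.07. Of 26 (of 44 listed) genes of potassium and HCN channels with a probe kept, 5 were higher in hippocampus, 14 higher in cortex and 7 not called. Over all genes 32.3% were called higher in hippocampus and 28.2% higher in cortex. None of the channel genes was more than 2-fold higher in hippocampus. Of all genes only 1.84% were, so this lack does not set the list apart. The silent subunit Kcnv1 ranged from 9.24 to 9.60 (median 9.36) in cortex and from 8.04 to 8.48 (median 8.24) in hippocampus, a difference of -1.13 ± 0.05 (adjusted p = 7.14e-15). Kcnf1, another silent subunit, ranged from 10.90 to 11.30 (median 11.11) in cortex and from 9.84 to 10.25 (median 10.05) in hippocampus, a difference of -1.04 ± 0.05 (adjusted p = 1.83e-14). The beta subunits moved apart, Kcnab3 at -1.04 ± 0.07 (adjusted p = 7.12e-11) and Kcnab2 at 0.63 ± 0.03 (adjusted p = 7.43e-14).

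Calcium-dependent kinases and sensors went both ways: of 19 (of 24 listed) with a probe kept, 9 were higher in hippocampus, 9 higher in cortex and 1 not called, and with each array centred on its median 10 and 6 were called in these directions. The neuronal calcium sensor hippocalcin (Hpca) ranged from 13.69 to 13.97 (median 13.81) in cortex and from 14.33 to 14.55 (median 14.43) in hippocampus, a difference of 0.62 ± 0.03 (adjusted p = 8.86e-13). The alpha and beta subunits of CaM kinase II (Camk2a and Camk2b) were higher in hippocampus by 0.47 ± 0.04 and 0.28 ± 0.02, and the delta subunit Camk2d and the upstream kinase Camkk2 higher in cortex, at -0.72 ± 0.09 and -0.95 ± 0.05. Among genes of the corticosteroid response, Hsd11b1, which regenerates active glucocorticoid, ranged from 9.19 to 9.76 (median 9.64) in cortex and from 10.86 to 11.31 (median 11.10) in hippocampus, a difference of 1.51 ± 0.04 (adjusted p = 1.38e-18). Fkbp5, a co-chaperone of the glucocorticoid receptor that the hormone induces, differed by 1.00 ± 0.07 (adjusted p = 7.56e-11) and the hormone-induced kinase Sgk1 by 0.32 ± 0.04 (adjusted p = 7.4e-07). The CRH receptor Crhr1 and the clock gene Per1 were higher in cortex, at -0.92 ± 0.09 and -0.49 ± 0.04.

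**Figure D2:**
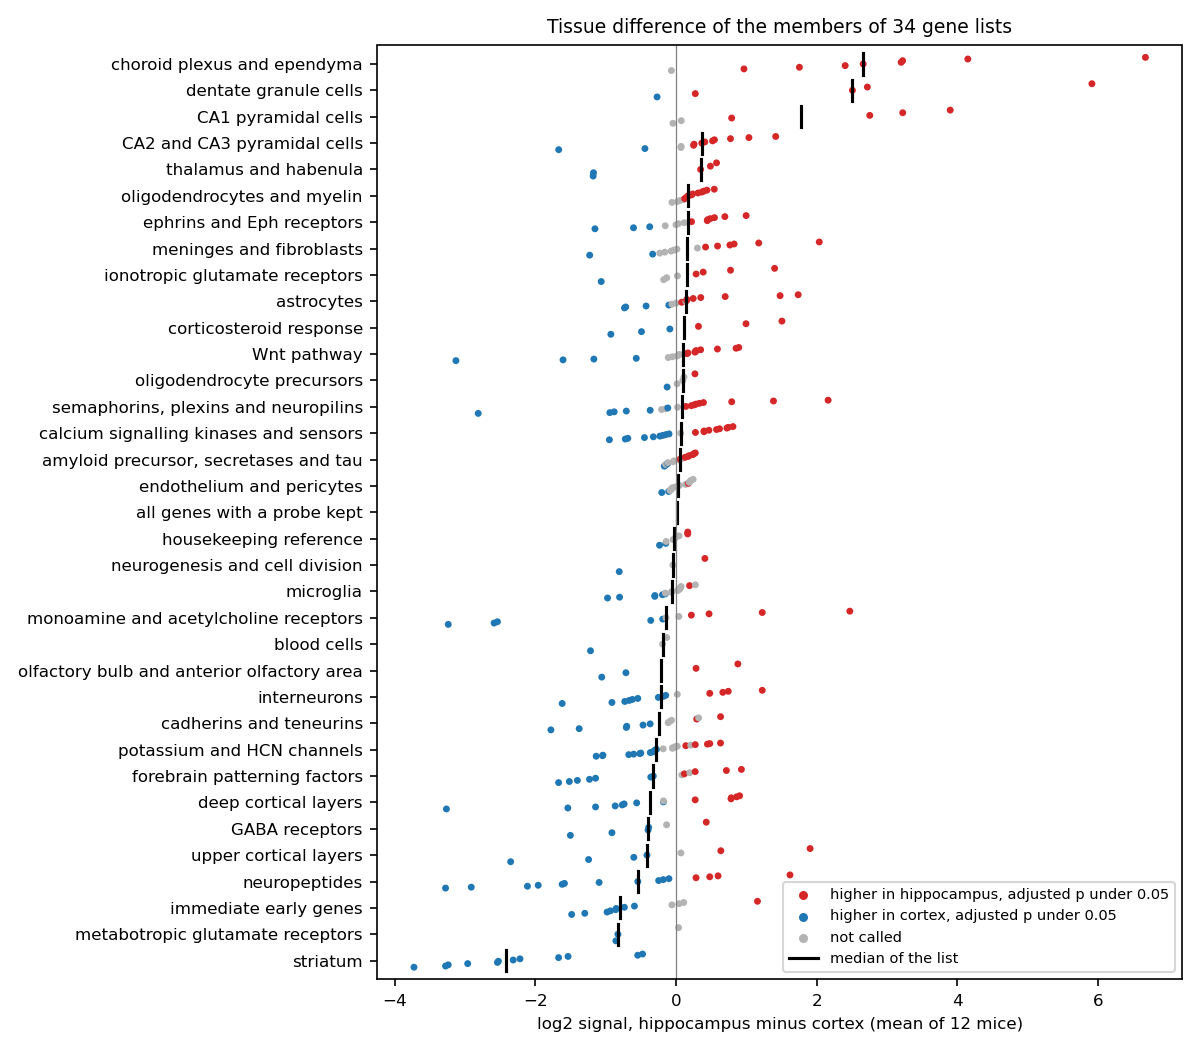
Difference of each gene (points, hippocampus minus cortex, mean log2 over 12 mice, x axis) in 34 gene lists and the median of each list and of all genes (black bars), ordered by median. The choroid plexus, dentate and CA1 lists have medians of 2.66, 2.51 and 1.77 and the striatal list -2.42, and all other medians lie between -0.82 and 0.37.

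Immediate early genes, which neuronal activity induces within minutes, were mostly higher in cortex. The levels of 7 of the 12 kept correlated between the tissues of a mouse, where all genes had a median r of 0.242. Of 12 (of 17 listed) with a probe kept, 1 was higher in hippocampus, 8 higher in cortex and 3 not called (median -0.79). Fos ranged from 7.75 to 9.51 (median 8.90) in cortex and from 6.52 to 8.59 (median 7.34) in hippocampus, a difference of -1.30 ± 0.07 (adjusted p = 1.34e-12), and the spread within each tissue was larger than that of the differences, with SDs of 0.57 and 0.613 against 0.278. Egr2 differed by -1.48 ± 0.11 (adjusted p = 1.06e-10), the phosphatase Dusp1 by -0.98 ± 0.07 (adjusted p = 5.29e-10), Npas4 by -0.93 ± 0.09 (adjusted p = 1.14e-08) and Fosb by -0.73 ± 0.09 (adjusted p = 5.27e-07). Junb was not called at 0.11 ± 0.07, but passed in the submitters' value table at 0.17. The neurotrophin Bdnf was the exception, ranging from 7.97 to 8.62 (median 8.44) in cortex and from 9.23 to 9.78 (median 9.57) in hippocampus, a difference of 1.16 ± 0.06 (adjusted p = 1.76e-13).

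Over the 12 mice, the cortical level of Fos correlated with the hippocampal level at r = 0.892 (permutation p = 0.00014, adjusted p = 0.00146) and rho = 0.895 (permutation p = 0.00014, adjusted p = 0.0021). For Npas4 the values were r = 0.855 (permutation p = 0.00031, adjusted p = 0.00146) and rho = 0.86 (permutation p = 0.00065, adjusted p = 0.00325), and for Dusp1 r = 0.844 (permutation p = 0.00157, adjusted p = 0.0045) and rho = 0.776 (permutation p = 0.00417, adjusted p = 0.00894). Permutation tests were two-sided with 100000 resamples, and p-values were adjusted over the 15 relations computed, those of 12 immediate early and 3 blood genes. Of these 15, 10 had an adjusted p under 0.05 by Pearson's r. Leaving out the pair of mice farthest from the cortical median gave r = 0.845 for Fos, 0.83 for Npas4 and 0.821 for Dusp1. It gave 0.605 for Junb (from 0.786), 0.514 for Egr2 (from 0.617) and 0.852 for Egr1 (from 0.4). Fosb moved to 0.127 (from 0.49), Bdnf to 0.483 (from 0.205) and Homer1 to -0.142 (from 0.197). The values of Junb, Egr2, Egr1, Fosb, Bdnf and Homer1 thus rest on few mice. With the means of each collection day removed, r was 0.961 for Fos, 0.894 for Npas4 and 0.877 for Dusp1. Single days held at most 4 mice, too few for a value of their own. The same pairs of mice shared a chip in both tissues, and the means of these pairs were not removed. What part of r follows the chips was therefore not tested, and the permutations treated the 12 mice as independent. The other immediate early genes past the threshold were Junb, Egr2, Egr4 and Arc, and Egr1, Egr3, Fosb, Bdnf and Homer1 did not pass (r = -0.26 to 0.49). Over all 9236 genes the median r was 0.242, with quartiles of -0.00687 and 0.467. The share of all genes that would pass the same test was not computed. Mouse 44 had the highest Fos in both tissues (9.51 and 8.59) and mouse 21 the lowest (7.75 and 6.52).

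Blood cell transcripts behaved alike over the mice. The beta globin Hbb-bt ranged from 8.19 to 10.14 (median 8.98) in cortex and from 6.58 to 8.59 (median 8.06) in hippocampus, a difference of -1.21 ± 0.10 (adjusted p = 1.23e-08), and its levels in the tissues correlated at r = 0.848 (permutation p = 0.00039, adjusted p = 0.00146) and rho = 0.832 (permutation p = 0.00142, adjusted p = 0.00462). With the 2 most extreme cortical values left out r was 0.876, and with day means removed 0.831. Means of the pairs of mice that shared a chip in both tissues were not removed here either. The alpha globin Hba-a1 and the erythroid haem enzyme Alas2 also passed (r = 0.711 and 0.74, and 0.554 and 0.862 with the 2 most extreme cortical values left out), but neither differed between tissues by the test (-0.13 ± 0.06, adjusted p = 0.0603, and -0.19 ± 0.09, adjusted p = 0.0675). Hba-a1 passed without mouse 4 or 36 (-0.16 and -0.17), and Alas2 without mouse 36 or 41 (-0.22 and -0.23). Globin genes share sequence with near-identical copies, so the gene a probe reads is uncertain within each family.

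**Figure D3:**
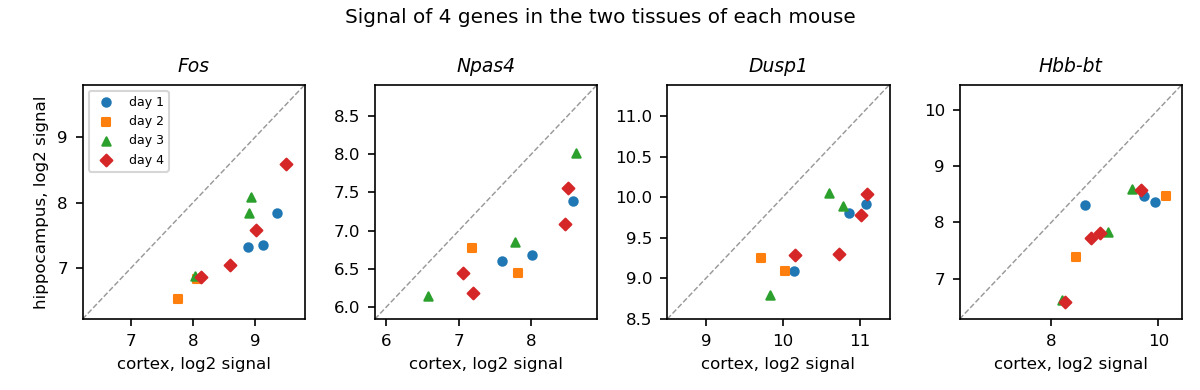
Normalized log2 signal in the cortex (x axis) and the hippocampus (y axis) of each of the 12 mice for Fos, Npas4, Dusp1 and Hbb-bt, with markers for the collection day and a dashed line of equal level. Mice high in one tissue were high in the other (r = 0.892, 0.855, 0.844 and 0.848), and all points lie below the line.

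Guidance and adhesion genes held several large opposite differences. Sema3a, a secreted semaphorin that repels axons, ranged from 8.53 to 9.05 (median 8.80) in cortex and from 5.46 to 6.54 (median 6.04) in hippocampus, a difference of -2.81 ± 0.09 (adjusted p = 4.89e-17). Its receptor Nrp1, neuropilin 1, ranged from 8.33 to 9.12 (median 8.72) in cortex and from 10.55 to 11.28 (median 10.87) in hippocampus in the opposite direction, a difference of 2.16 ± 0.08 (adjusted p = 2.68e-12). Sema5a, a transmembrane semaphorin, was higher in hippocampus by 1.39 ± 0.05 (adjusted p = 1.12e-14), and the plexin Plxnd1 higher in cortex at -0.94 ± 0.10 (adjusted p = 5.1e-08). Of 18 (of 31 listed) genes of the family with a probe kept, 9 were higher in hippocampus, 6 higher in cortex and 3 not called. Among ephrins and Eph receptors, with 14 (of 22 listed) genes kept, 7 were higher in hippocampus, 3 higher in cortex and 4 not called. Over all genes 60.5% were called, so the number called does not set the ephrin list apart. Efna5 ranged from 10.22 to 10.59 (median 10.38) in cortex and from 8.71 to 9.43 (median 9.25) in hippocampus. Its difference was -1.15 ± 0.05 (adjusted p = 2.07e-14). The receptor Epha7 ranged from 7.95 to 8.51 (median 8.26) in cortex and from 9.06 to 9.64 (median 9.24) in hippocampus. That difference was 1.00 ± 0.07 (adjusted p = 6.26e-11), and the dimmer probes of Epha7 gave 0.64 and 0.33.

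Among cadherins and teneurins 12 (of 19 listed) genes had a probe kept, of which 2 were higher in hippocampus, 6 higher in cortex and 4 not called. Cdh7 ranged from 6.56 to 7.43 (median 7.07) in cortex and from 4.86 to 6.10 (median 5.21) in hippocampus. Its difference was -1.78 ± 0.10 (adjusted p = 3.37e-12), and Cdh22 differed by -1.38 ± 0.10 (adjusted p = 5.84e-10). Cdh8 was higher in hippocampus by 0.63 ± 0.08 (adjusted p = 2.83e-07), but its dimmer probe was not called (0.06, adjusted p = 0.624). In the Wnt pathway, of 18 (of 29 listed) genes with a probe kept, 9 were higher in hippocampus, 4 higher in cortex and 5 not called. With 60.5% of all genes called, the numbers called do not set the cadherin or the Wnt list apart. The ligands went different ways, with Wnt10a at -1.60 ± 0.09 (adjusted p = 1.01e-12) and Wnt2 at -1.17 ± 0.09 (adjusted p = 6.03e-10) against Wnt5a at 0.85 ± 0.09 (adjusted p = 4.81e-08). The receptor Fzd7 was higher in hippocampus by 0.89 ± 0.08 (adjusted p = 7.94e-09). Of 13 (of 22 listed) forebrain patterning factors with a probe kept, 4 were higher in hippocampus, 7 higher in cortex and 2 not called. Mef2c, a MADS-box factor of maturing neurons, ranged from 10.84 to 11.87 (median 11.12) in cortex and from 8.63 to 10.42 (median 9.65) in hippocampus, a difference of -1.52 ± 0.15 (adjusted p = 3e-06). Meis1 differed by -1.40 ± 0.11 (adjusted p = 2.67e-09) and Id2 by -1.23 ± 0.07 (adjusted p = 3.5e-12), and Nr2f2 was higher in hippocampus by 0.93 ± 0.11 (adjusted p = 2.63e-07), detected on 1 cortical and 11 hippocampal arrays.

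Genes of amyloid precursor processing, which the wider study concerns, had differences from -0.17 to 0.28 in WT mice. Of 16 (of 19 listed) with a probe kept, 7 were higher in hippocampus, 3 higher in cortex and 6 not called. None differed 2-fold, and the median was 0.053. With each array centred on its median 8 were higher in hippocampus and 0 in cortex. Over all genes 60.5% were called and 4.24% differed 2-fold, so these counts do not set the list apart. App, the amyloid precursor, ranged from 12.68 to 13.06 (median 12.93) in cortex and from 12.65 to 13.01 (median 12.84) in hippocampus, a difference of -0.12 ± 0.04 (adjusted p = 0.00998) that did not pass with each array centred on its median (-0.041). The chaperone clusterin (Clu) differed by 0.28 ± 0.02 (adjusted p = 1.66e-09) and presenilin 2 (Psen2) by 0.25 ± 0.05 (adjusted p = 7.08e-05). Tau (Mapt) was higher in hippocampus by 0.19 ± 0.05 (adjusted p = 0.00484) on its brightest probe, but its 3 dimmer probes had the opposite sign, 1 of them called (-0.12, adjusted p = 0.018). Among 8 reference genes 2 were called in each direction, with a median of -0.024, and their direction depends on the scaling: the glycolytic enzyme Gapdh was -0.04 here (not called, but called at -0.054 without mouse 6, with a second probe called at -0.066, adjusted p = 0.0144), 0.12 with each array centred on its median and 0.11 in the submitters' value table. Of 245 genes that the naming rule took, 55 had further probes, and 65 of these 76 probes had the sign of the brightest. Of the others, 4 were called in the opposite direction to a called brightest probe, at sizes of at most 0.38. They were 1 each for Actb, Chrnb2, Mapt and Slc1a2. Probes of the same sign could still differ in size. The reference gene Hprt was at -0.14 on its brightest probe but at -1.19 (adjusted p = 3.61e-09) and -1.08 (adjusted p = 1.41e-08) on its others.

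The same difference was measured in 9 APP/PS1 PBS mice, none of which entered the comparison above. Of the 508 probes at least 2-fold different in WT mice, 495 passed the filter on the arrays of both genotypes. All 495 had the same sign in APP/PS1 mice, and 486 were called in the same direction there, where 6167 of 13211 probes (46.7%) were called in all. Both genotypes shared chips, so this is no check of the chip sets. The tissue difference itself differed between genotypes on 531 probes (4.02%), 368 (2.79%) more negative in APP/PS1 mice and the rest (1.23% of those tested) more positive, and on 37 of the 508. With each array centred on its median 340 were more negative and 50 more positive. The differences that follow come from this fit, in which the arrays of both genotypes were normalized together. Serpina3n, a serpin of reactive astrocytes, ranged from 8.63 to 9.10 (median 8.87) in cortex and from 10.48 to 10.85 (median 10.73) in hippocampus in WT mice. Its tissue difference was 1.85 in WT and 0.73 in APP/PS1 mice, a change of -1.12 ± 0.08 (adjusted p = 7.49e-08). For Gfap the differences were 1.73 and 0.22, a change of -1.51 ± 0.12 (adjusted p = 1.92e-07). Tlr2, a Toll-like receptor, went from 0.35 to -0.91 and Tyrobp, the adaptor of microglial receptors, from -0.19 to -1.07, each lying lower in hippocampus than in cortex in APP/PS1 mice. Tgfbr2, a TGF-beta receptor, went from 0.20 to -0.59. Among the largest regional differences, C1ql2 was at 5.90 and 5.71, Spink8 at 3.89 and 3.90 and Scn4b at -3.66 and -3.57, none of them called for a difference between genotypes.

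**Figure D4:**
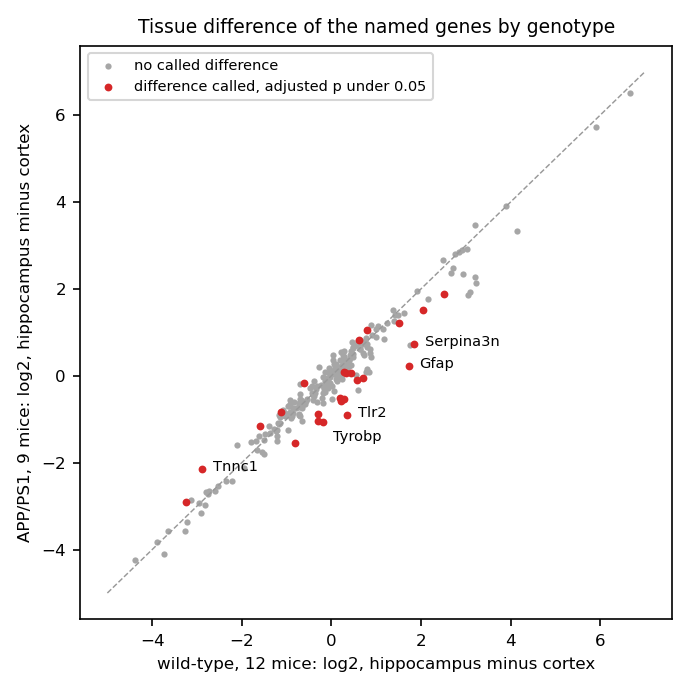
Difference between hippocampus and cortex (log2) in 12 wild-type mice (x axis) and 9 APP/PS1 mice (y axis) for the genes taken by the naming rule, 1 point per gene, with a dashed line of equal difference and red points where the difference between genotypes had an adjusted p under 0.05. Most genes lie along the line, and Serpina3n and Gfap lie below it, at 0.73 and 0.22 in APP/PS1 mice.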

How the data were processed

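Expression was measured on Illumina mouse bead arrays in 91 samples, of which 24 are compared here. Per the file headers, the authors deposited a signal intensity and a detection p-value for each of 25697 probes and each array, not normalized. Some intensities are below 0, so a background had been subtracted. BeadStudio, GenomeStudio and Partek appear, without versions, in the submitters' processing notes. The deposited value table, used as an alternative, appears to hold log2 values, with a normalization that no label states. The number of beads behind a signal is not given in these values, so the number of arrays limits the precision.

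Both tissues were normalized together with neqc of limma 3.58.1 in R 4.3.3 (normal-exponential background correction from the detection p-values, offset 16, quantile normalization, log2). Probes with a detection p under 0.05 on at least 12 of 24 arrays were kept. Tissue was tested in limma with the mouse as a fixed block (eBayes with trend and robust settings, statmod 1.5.0), two-sided, with Benjamini-Hochberg adjustment over all 13205 probes kept at 0.05. A second count added a log2 difference of at least 1. Each ± is the SE of the log2 difference over 12 mice. The difference between genotypes was tested in limma on per-mouse differences after neqc of the 42 PBS arrays, with detection on at least 21. The fits were tested on simulated data. Gene names came from the platform annotation, updated by gene number: 16814 probes had 1 symbol and 8883 none. A gene is represented by its brightest probe.

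The animal number pairs the arrays, since both pieces came from 1 mouse. Deviations from the tissue mean correlated at 0.208 on average between the arrays of a mouse (-0.0559 to 0.455) and -0.0192 between different mice, and 5 of 12 cortical arrays correlated best with their own mouse. The 34 gene lists, the comparison and the genes were chosen with earlier results of these data known. The genes named are the 15 largest differences in each direction with 1 sign in 12 of 12 mice, of each list the first 3 kept and up to 4 of the largest called in each direction, the 6 called genes of largest SD over the mice, the 5 of smallest p for the genotype difference, and probes that disagree. List results are counts and medians with no test of the list. Alternatives were the background correction, normalization, value table, filter, block, chip, array weights, probes, single mice and collection days.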

Additional observations from a re-analysis of the deposited data

Results flagged for a closer look

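The difference between hippocampus and cortex was tested against genotype over 12 WT and 9 APP/PS1 mice in limma, and the genes named above that passed an adjusted p of 0.05 are given here as the value in APP/PS1 minus that in WT mice. The smallest p-values belonged to Serpina3n at -1.12 ± 0.08 (adjusted p = 7.49e-08), Gfap at -1.51 ± 0.12 (adjusted p = 1.92e-07), Tlr2 at -1.27 ± 0.11 (adjusted p = 6.87e-07), Tyrobp at -0.88 ± 0.08 (adjusted p = 1.76e-06) and Tgfbr2 at -0.80 ± 0.08 (adjusted p = 1.94e-06). Among glial genes, the water channel Aqp4 changed by -0.75 ± 0.19 (adjusted p = 0.0214), the microglial protease Ctss by -0.74 ± 0.20 (adjusted p = 0.0356), transferrin (Trf) by -0.38 ± 0.07 (adjusted p = 0.000917) and clusterin (Clu) by -0.20 ± 0.05 (adjusted p = 0.0236). All of these were more negative in APP/PS1 mice. The same held for the proteoglycan Dcn at -0.51 ± 0.14 (adjusted p = 0.0412), the kinase Prkcd at -0.68 ± 0.11 (adjusted p = 0.000374), the dentate marker Il16 at -0.63 ± 0.15 (adjusted p = 0.0157), the glucocorticoid enzyme Hsd11b1 at -0.28 ± 0.08 (adjusted p = 0.0477) and the kinase Sgk1 at -0.26 ± 0.07 (adjusted p = 0.0286). More positive were the troponin Tnnc1 at 0.73 ± 0.11 (adjusted p = 0.000169), the ligand Wnt10a at 0.46 ± 0.12 (adjusted p = 0.0351), the deep layer gene Myl4 at 0.34 ± 0.09 (adjusted p = 0.0465), the channel subunit Kcnv1 at 0.29 ± 0.08 (adjusted p = 0.0423), the CA1 factor Pou3f1 at 0.27 ± 0.08 (adjusted p = 0.0412) and the calcium sensor Hpca at 0.20 ± 0.06 (adjusted p = 0.0479). With each array centred on its median 50 probes in all were more positive, and whether these genes were among them was not tested. The WT and APP/PS1 differences of Prkcd were 0.57 and -0.11, and those of Tnnc1 -2.88 and -2.15.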

How the results depend on the processing

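All 5 counts of the tissue comparison stayed within 1.5 times under another background correction, another normalization, all 91 arrays normalized together, the submitters' value table, no filter, array weights and the chip as a random block (7823 called), except that under the stricter filter, which tests 10744 probes, 1.13% of those tested were at least 2-fold higher in hippocampus, 96 probes fewer than the 217 (1.64%) above. Median centring called 4653 probes higher in hippocampus and 3066 in cortex. Without the pairing, that is with no replicate block, 7384 probes were called (3894 and 3490), and with the mouse as a random block 8037. Within single collection days, which hold fewer mice, 1862 probes were called on day 1 (770 higher in hippocampus and 1092 in cortex), 3333 on day 2 (1551 and 1782) and 4466 on day 3 (2184 and 2282), and 2751 were higher in hippocampus on day 4. Leaving out 1 mouse at a time gave 7480 to 7888 probes called, 3889 to 4179 higher in hippocampus, 3547 to 3731 higher in cortex, 215 to 224 at least 2-fold higher in hippocampus and 276 to 314 in cortex. For the difference between genotypes it gave 404 to 631 probes, 296 to 425 more negative and 108 to 206 more positive, with the lowest, 108, without mouse 33. Median centring left 50 more positive, and the cause was not tested. With no further background correction the median was 2.99 for the dentate list and -2.78 for the striatal list, and with median centring it was 0.064 for the reference genes. Signs that turned belonged to differences of small size or high spread. With median centring these were Aldoc at 0.0076 and Gapdh at 0.12, and in the submitters' table Aldoc at 0.049, Aplp2 at 0.095, Gapdh at 0.11 and Tsc22d3 at 0.029. Within a day they were Nmb at -0.10 and Slco1a4 at 0.014 on day 1, Aplp1 at -0.011, Grm4 at 0.063 and Tenm3 at -0.12 on day 2, and Tsc22d3 at 0.014 and Vtn at -0.064 on day 3. Probes dim in one tissue give understated differences there.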
